A study of Vaccinium virgatum with 9 samples.

Results

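In rabbiteye blueberry fruit, 123 of the 38665 genes in the deposited count table formed a graded decline. Their transcripts were highest in fruit of water-treated plants, intermediate after potassium sulfate at flowering, and lowest after potassium sulfate at the young fruit stage. Members were chosen on mean library-scaled counts (CPM, the reads of a gene scaled to a common library total, here with edgeR's TMM factors). A member had at least 5 CPM in water. Its mean after potassium at flowering was at least 1.5-fold below water but not as much as 4-fold below it, and its mean after potassium at young fruit was at least a further 1.5-fold below that at flowering. All 9 libraries entered that choice, so the direction and least size of both steps are set by it and are given as a description.

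The fruit came from potted plants, 7 years old, of a Menditoo × Tifblue rabbiteye blueberry (Vaccinium virgatum, a polyploid species). One group of plants received 10 g of potassium sulfate each, dissolved in water, at the young fruit stage; another received the same dose at flowering; the third received water alone. Fruit from the upper layer was picked 90 days after flowering in every group, and a replicate pooled 12 to 18 fruits. Each group had 3 libraries. The labels leave unsaid whether these stem from different plants, so p-values speak only of the scatter among the libraries sequenced, some of which may be technical. Potassium and sulfate were given together, and an earlier dose also left a longer time to harvest. Those factors cannot be told apart here.

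Potassium is the main inorganic cation of plant cells. It sets osmotic pressure, activates enzymes and accompanies the loading of sugar into the phloem, which feeds the growing fruit. In blueberry the late growth and ripening of the fruit go with the build-up of sugars and of anthocyanins, the red to blue pigments that the title of the series names. The sources used here pair no identifier with a gene name, product or sequence, so no role is given to any member, and the tissue label could not be set against marker genes. Identifiers of 103 members began with Vadar and are called Vadar genes. The other 20 carried a second prefix and are called non-Vadar loci, without their identifiers.

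The libraries held 15655016 to 18424967 counts, with overlapping totals in the 3 groups. Every member passed the filter on low counts, as did all 14945 genes at 5 CPM or more in water. The filter kept 25728 genes for testing, and no member had 0 counts in any library. The thinnest member averaged 13.3 counts per library after potassium at young fruit, and 32 members averaged under 30 counts there, so their ratios carry a wide counting error. All values are relative to the library total, and in whole fruit fewer cells of a type and less RNA per cell cannot be told apart.

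The decline was similar in all libraries of a group. The median member stood at 28.1, 26.4 and 26.5% of its water mean in the 3 libraries of potassium at young fruit. It stood at 49.0, 47.6 and 47.7% in the 3 libraries of potassium at flowering, and at 100, 98.9 and 101% in the 3 water libraries. By the median member, libraries differed little within their group: the median deviation of members from their own group mean lay between -0.05 and 0.04 on the log2 scale, and that of all tested genes at 5 CPM or more in water between -0.01 and 0.01. Among the libraries of potassium at young fruit, replicate 1 was the highest in 54 members and replicate 2 the lowest in 55. Per member, the mean after young-fruit potassium was 9.73 to 43.3% of water, with a median of 27.8%. The mean after flowering potassium was 25.1 to 66.3% of water, with a median of 48.8%.

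**Figure D1:**
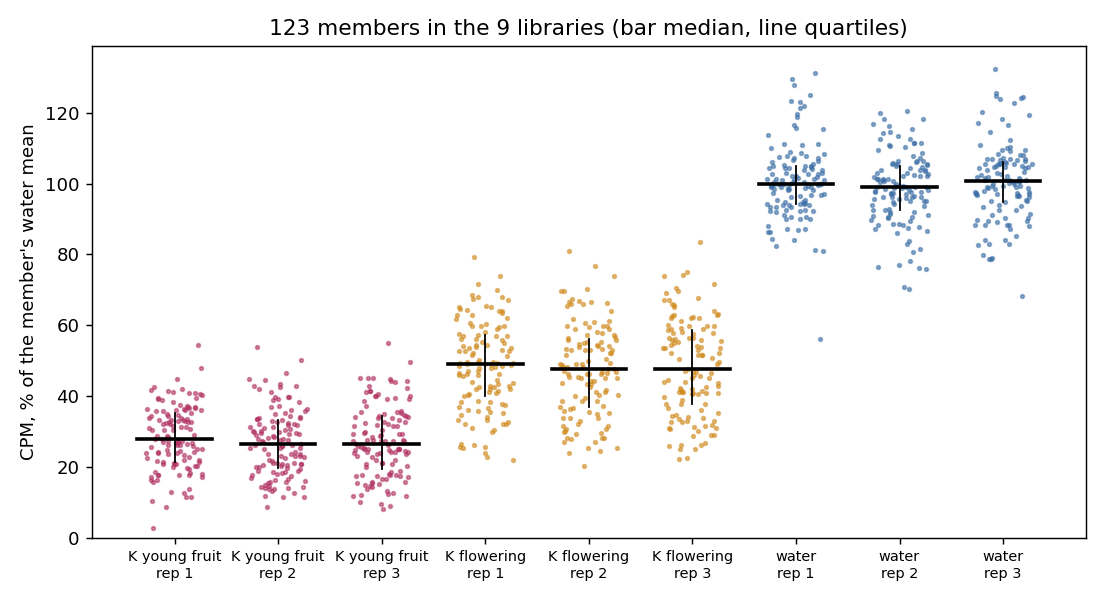
CPM of each of the 123 members as a percentage of that member's own water mean, in the 9 libraries. Points are members, bars medians and vertical lines quartiles; the medians lie at 26.4 to 28.1% after potassium at young fruit, 47.6 to 49.0% after potassium at flowering and 98.9 to 101% in water.

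Against the spread between libraries, 112 members (91.1%) were in full order, with every library of potassium at young fruit below every library of potassium at flowering, and every one of those below every water library. Of all 25728 tested genes, 4.07% were in that order, and of the 14945 at 5 CPM or more in water 6.07%. In the other 11 members the overlap was between the 2 timings of potassium, and neither potassium group overlapped with water in any member. Those 11 all averaged 28.1 CPM or less in water. One of them had 0.187, 1.42 and 0.929 CPM after potassium at young fruit, 2.08, 1.36 and 2.43 CPM after potassium at flowering, and 6.81, 7.12 and 6.30 CPM in water.

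All 123 members fell after potassium at young fruit relative to water in edgeR's quasi-likelihood test (Benjamini-Hochberg adjusted p of at most 5.80e-05), where 25.7% of all tested genes were called lower. All 123 also fell after potassium at flowering relative to water (edgeR adjusted p of at most 0.0294), where 24.4% of all tested genes did. Between the timings, 104 of 123 were lower after potassium at young fruit, where 9.24% of all tested genes were. These 104 were lower in all 3 contrasts, as were 2.33% of all tested genes. The rule used each of these contrasts, so nothing is read from the shares. Median log2 fold changes over the members were -1.86 for young fruit against water, -1.05 for flowering against water and -0.75 for young fruit against flowering, beside -0.02, -0.02 and 0.00 for the same contrasts over all tested genes. The contrasts share libraries and are not independent of each other.

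The 19 members that were not called between the timings had a median of 6.33 CPM in water and at most 11.7 CPM, against a median of 14.4 CPM in the 104 that were called. Their median was 30.3 counts per library after potassium at young fruit and 51.7 after potassium at flowering, while the called members had 70.7 after potassium at young fruit and 116 after potassium at flowering. In 11 of the 19 the edgeR adjusted p was under 0.1, and the highest was 0.203. Low counts did not always go with a missed call: of the 32 members under 30 counts per library after potassium at young fruit, 24 were called and 8 were not. The 19 also had small second steps, with log2 fold changes between the timings of -0.58 to -0.80, where all 123 members ran from -0.58 to -1.91. What set the missed calls apart was not tested.

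In most members the first step, flowering against water, was larger than the second, young fruit against flowering. The steps compare separate groups of plants with fruit picked at the same age, and are not a sequence in time. On the log2 scale the difference between potassium at flowering and water was larger than that between the timings in 98 members, and smaller in 25. In 57 members the steps were within 0.25 log2 of each other. The first step reached at least 2-fold in 65 members and at least 3-fold in 16, whereas the second reached 2-fold in 23, and both did in 14. After potassium at young fruit 45 members were at least 4-fold below water, and 3 were at least 8-fold below. The median fold was 3.60 for water over young-fruit potassium, 2.05 for water over flowering potassium and 1.69 for flowering over young-fruit potassium. The upper limit of 4-fold on the first step keeps steeper first steps out, and the second step has no such limit.

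**Figure D2:**
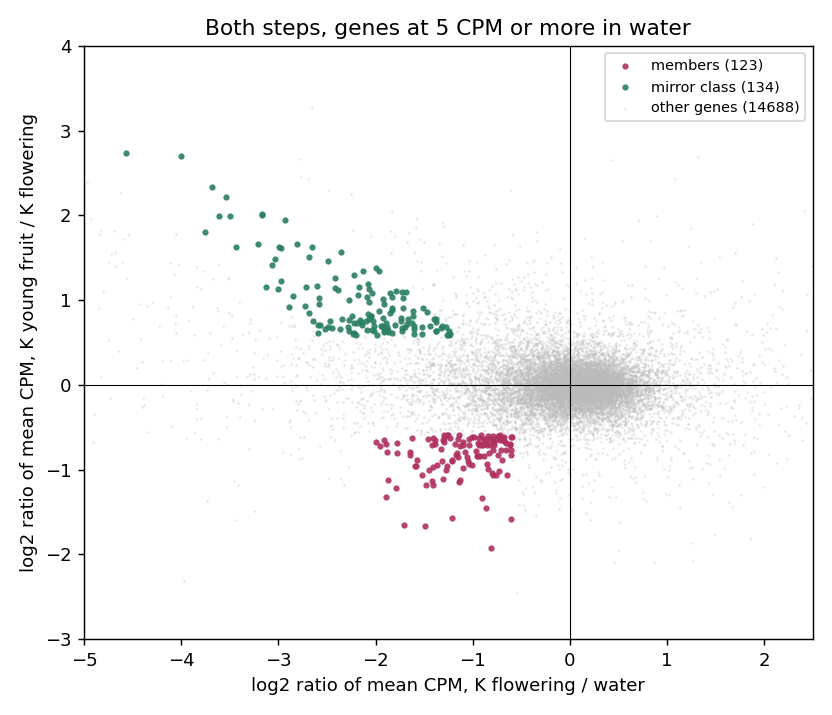
Log2 ratio of mean CPM for potassium at young fruit over potassium at flowering (vertical axis) against potassium at flowering over water (horizontal axis), for genes at 5 CPM or more in water, with 100 genes outside the axes. The 123 members fill the lower left block that the rule cuts out, the 134 genes with the reverse order of timings fill the upper left, and the straight edges of both blocks come from the thresholds.

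The reads of the graded decline were held by few genes. CPM is not corrected for transcript length, which is not given, so the order that follows is one of reads and not of transcript number. Together the members took 5583 ± 138 CPM (SD, n = 3) after potassium at young fruit, 9166 ± 29.8 CPM after potassium at flowering and 17520 ± 714 CPM in water. That is 0.558% of the TMM-scaled library total after young-fruit potassium, 0.917% after flowering potassium and 1.75% in water. The 4 members with the most reads, all Vadar genes, held 81.3% of that sum after potassium at young fruit, 80.3% after potassium at flowering and 76.0% in water. The other 119 members summed to 1041 ± 24.1 CPM after potassium at young fruit, 1807 ± 11.5 CPM after potassium at flowering and 4195 ± 104 CPM in water (SD, n = 3 each), which is 24.8% of water after young-fruit and 43.1% of water after flowering potassium.

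The member with the most reads had 2364, 2426 and 2534 CPM after potassium at young fruit, 3705, 3779 and 3725 CPM after potassium at flowering, and 5358, 5711 and 5934 CPM in water. No group overlapped with another, and it was among the shallowest members, at 43.1% of water after young-fruit potassium (edgeR log2 fold change -1.23 ± 0.04, SE, adjusted p = 1.38e-17). The member next in reads had 1096, 1048 and 1112 CPM after potassium at young fruit, 1809, 1755 and 1765 CPM after potassium at flowering, and 3311, 3049 and 3525 CPM in water. Both steps were wider than the scatter within any group. The third had 717, 669 and 739 CPM after potassium at young fruit, 1308, 1250 and 1274 CPM after potassium at flowering, and 2678, 2503 and 2827 CPM in water. The fourth was the steepest of these: it had 300, 307 and 314 CPM after potassium at young fruit, 556, 575 and 576 CPM after potassium at flowering, and 1668, 1654 and 1759 CPM in water. It stood at 18.1% of water after young-fruit potassium (edgeR log2 fold change -2.48 ± 0.04, SE, adjusted p = 2.53e-22), and its step between the timings was -0.89 ± 0.04 (edgeR adjusted p = 2.43e-13).

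**Figure D3:**
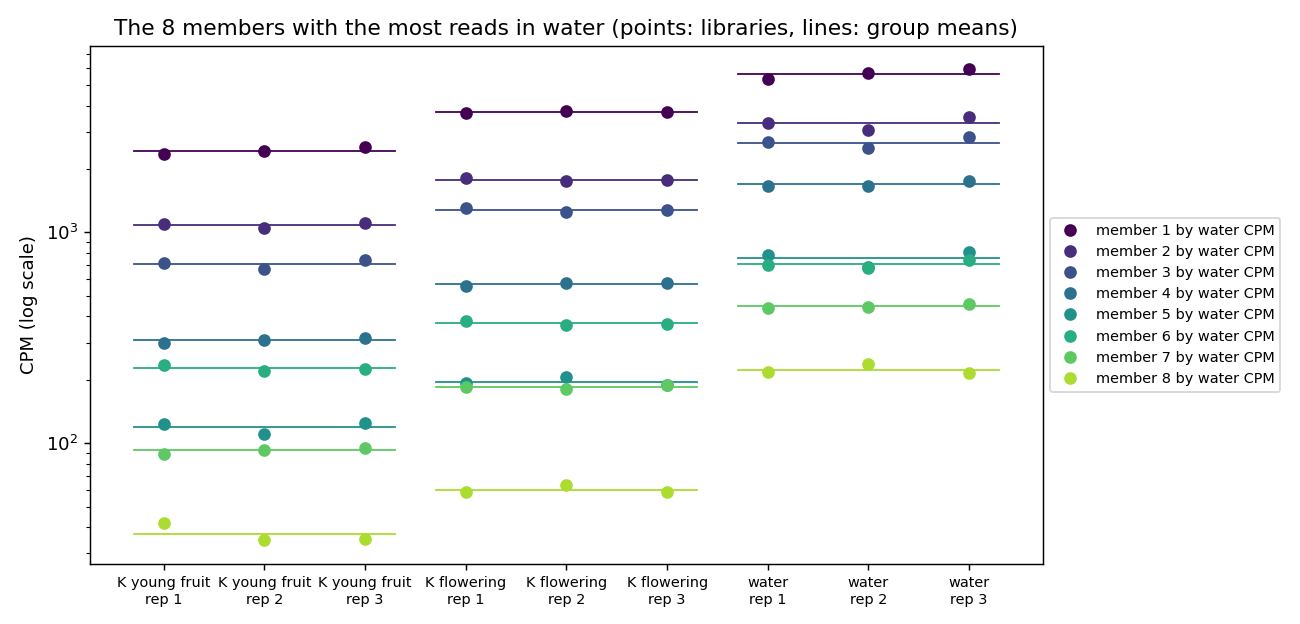
CPM on a log scale in each library for the 8 members with the most reads in water, with points for libraries and lines for group means. In each of the 8 the libraries of potassium at young fruit lie below those of potassium at flowering, and those below water; the top member spans 2364 to 5934 CPM.

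The steepest falls were not all in members with few reads. At 102 CPM in water, Vadar_g39594.v1.2 had a log2 fold change of -3.17 ± 0.08 for young fruit against water (SE, edgeR adjusted p = 9.27e-20). Relative to water, the largest fall after potassium at young fruit was in Vadar_g4950.v1.2. It had 1.62, 1.22 and 1.24 CPM after potassium at young fruit, 4.27, 3.96 and 4.61 CPM after potassium at flowering, and 15.2, 14.3 and 12.5 CPM in water. Both steps were of much the same size, at -1.64 ± 0.21 between the timings (edgeR adjusted p = 2.51e-06) and -1.72 ± 0.16 for flowering against water (edgeR adjusted p = 2.98e-09), and the total was -3.36 ± 0.19 (SE, edgeR adjusted p = 2.69e-13). The lowest values rest on 26, 19 and 20 counts. Next was Vadar_g7380.v1.2, with 2.49, 2.25 and 1.61 CPM after potassium at young fruit, 4.33, 5.45 and 6.08 CPM after potassium at flowering, and 19.8, 19.2 and 19.8 CPM in water. Its log2 fold change for young fruit against water was -3.22 ± 0.17 (edgeR adjusted p = 9.51e-14), of which the first step made up the larger portion, at -1.91 ± 0.15.

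After potassium at flowering the largest falls relative to water were those of Vadar_g8187.v1.2 and Vadar_g37839.v1.2, at the upper limit of the first step. Vadar_g8187.v1.2 had 5.55, 4.38 and 4.52 CPM after potassium at young fruit, 7.02, 8.31 and 7.68 CPM after potassium at flowering, and 31.8, 29.3 and 30.6 CPM in water. Its log2 fold change was -2.01 ± 0.11 for flowering against water (edgeR adjusted p = 4.52e-13) and -0.67 ± 0.14 between the timings (edgeR adjusted p = 9.97e-04). Vadar_g37839.v1.2, the next in reads after the top 4, had 123, 110 and 125 CPM after potassium at young fruit, 192, 205 and 189 CPM after potassium at flowering, and 778, 685 and 804 CPM in water. Its log2 fold change was -1.96 ± 0.06 for flowering against water (edgeR adjusted p = 4.89e-18) and -0.71 ± 0.06 between the timings (edgeR adjusted p = 5.83e-09).

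Between the timings the largest differences were in a non-Vadar locus and in Vadar_g39594.v1.2. The locus had 1.81, 1.29 and 1.55 CPM after potassium at young fruit, 5.55, 6.23 and 5.76 CPM after potassium at flowering, and 11.0, 9.05 and 10.7 CPM in water. For it the second step, -1.91 ± 0.20 (edgeR adjusted p = 1.50e-07), was larger than the first, -0.82 ± 0.16 (edgeR adjusted p = 1.72e-04). Vadar_g39594.v1.2 had 10.5, 11.7 and 12.0 CPM after potassium at young fruit, 35.5, 39.3 and 33.5 CPM after potassium at flowering, and 103, 101 and 100 CPM in water. Its steps were nearly equal, at -1.66 ± 0.08 between the timings (edgeR adjusted p = 5.95e-13) and -1.51 ± 0.07 for flowering against water (edgeR adjusted p = 1.25e-14). The 3 groups of both genes were far apart relative to the spread within each.

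Among genes moderately lower after potassium at flowering than in water, a still lower value after potassium at young fruit was uncommon. Of the 1952 genes that met the rule's bounds for water and flowering, 6.30% were at least 1.5-fold lower again after potassium at young fruit and are the members. After young-fruit potassium 82.6% lay within 1.5-fold of their flowering value and 11.1% were at least 1.5-fold higher. The reverse order of timings was about as frequent. With the 2 timings exchanged in the rule, 134 genes were lowest after potassium at flowering. They were 6.13% of the 2187 genes moderately lower after potassium at young fruit than in water. That set is called the mirror class.

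Members were spread unevenly over the range of reads. In water 56 members (45.5%) lay at 5 to 10 CPM, 57 (46.3%) at 10 to 100 CPM, 6 at 100 to 1000 CPM and 4 above 1000 CPM. Of all genes at 5 CPM or more in water, 21.4% lay at 5 to 10 CPM and 66.0% at 10 to 100 CPM, and 30.6% and 57.5% of the mirror class described above did. At the other end, 15 genes above 1000 CPM were moderately lower after potassium at flowering, and 4 of them were members (26.7%). The share was 3.45% of the 174 at 100 to 1000 CPM, 4.88% of the 1169 at 10 to 100 CPM and 9.43% of the 594 at 5 to 10 CPM. The mirror class held 1 gene above 1000 CPM. These classes were chosen after the data were seen, and the count of 4 is small.

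Spread between replicates was wider in groups where members held fewer reads. The median coefficient of variation between the 3 libraries was 15.1% after potassium at young fruit, 12.4% after potassium at flowering and 8.75% in water. Over all tested genes at 5 CPM or more in water it was 7.03% after potassium at young fruit, 6.43% after potassium at flowering and 7.27% in water. Members held fewer reads than those genes, with a median of 53.3 counts per library after potassium at young fruit against 385. The part of depth in the wider spread after potassium was not tested, and the levels that follow compare the spread in water alone. By water level, the spread in water was 13.8% for members and 12.3% for all genes at 5 to 10 CPM, and 7.48% and 6.74% at 10 to 100 CPM. It was 4.70% for the 6 members and 4.86% for all genes at 100 to 1000 CPM, and 5.60% for the 4 members and 3.38% for all 71 genes above 1000 CPM.

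Values in libraries that had no say in the choice were read by leaving out each library in turn and applying the rule to the other 8. The means they were set against did take part in the choice, which favours the chosen order, so these shares are a description. Without 1 library of potassium at young fruit, 112 to 136 genes were chosen, and in the library left out 94.1 to 97.3% of them lay below their flowering mean, as did 52.4 to 53.4% of all tested genes at 5 CPM or more in water. The median log2 ratio to flowering in the library left out was -0.62, -0.80 and -0.72 for replicates 1, 2 and 3, beside -0.79, -0.78 and -0.75 in the libraries that had chosen them. Fewer genes, 52.9 to 72.3%, kept the full 1.5-fold distance from flowering in the library left out. For the libraries of potassium at flowering, 95.9 to 99.2% of the chosen genes lay between their young-fruit and water means in the library left out. The share was 20.9 to 21.7% of all such genes. The rule sets those means apart in the chosen genes and not in all genes, so nothing is read from the difference in share. In the library left out, 57.6 to 61.0% of the chosen genes met all bounds. Each library of water left out was above the flowering mean in 99.2 to 100% of the chosen genes and in 46.8 to 47.6% of all such genes.

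**Figure D4:**
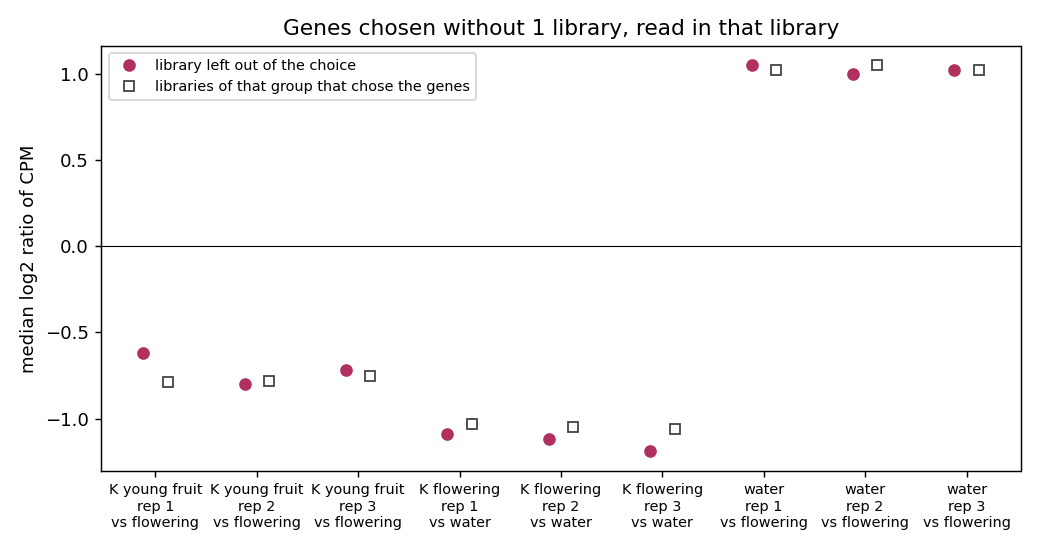
Median log2 ratio of CPM over the genes chosen without 1 library, in that library (filled) and in the remaining libraries of its group (open squares), relative to the group named under each pair. For the 3 libraries of potassium at young fruit the filled points lie at -0.62, -0.80 and -0.72, and for those of potassium at flowering at -1.09, -1.12 and -1.19.

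Members near the thresholds were numerous. The second step was 1.5 to 1.6-fold in 40 members, and 48 genes that met every other bound had a second step of 1.4 to 1.5-fold. Just inside that bound was a member with 3.23 CPM after potassium at young fruit, 4.84 CPM after potassium at flowering and 11.7 CPM in water, and just outside a gene with 5.77 CPM after potassium at young fruit, 8.64 CPM after potassium at flowering and 15.3 CPM in water. For the first step, 11 members lay at 1.5 to 1.6-fold and 16 genes just short of it at 1.4 to 1.5-fold. At the water minimum, 17 members had 5 to 6 CPM, with 21 genes at 4 to 5 CPM left out, and the nearest values on either side were 5.13 and 4.84 CPM. At the upper limit of the first step the last member was 3.99-fold below water and the next gene, left out, 4.76-fold below.

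Non-Vadar loci made up 16.3% of members, against 10.4% of the mirror class and 11.7% of all genes at 5 CPM or more in water. At 5 to 10 CPM in water the shares were closer, 19.6% of members and 18.2% of all genes. The 20 non-Vadar members had a median of 9.09 CPM in water, and the 103 Vadar members 13.1 CPM. The median log2 ratios of the non-Vadar members were -0.89 for flowering over water and -0.71 for young fruit over flowering, against -1.06 and -0.76 in the Vadar members.

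Identifier numbers were examined for members that stand side by side. Whether numbers follow positions along a chromosome is not given in the sources used here, and reads of near-identical copies could be split or merged by the counting. A single pair of Vadar members had consecutive numbers. The one with more reads had 236, 220 and 224 CPM after potassium at young fruit, 378, 365 and 369 CPM after potassium at flowering, and 701, 681 and 738 CPM in water. Its neighbour had 5.49, 4.89 and 5.88 CPM after potassium at young fruit, 9.77, 7.92 and 10.1 CPM after potassium at flowering, and 19.7, 16.8 and 17.9 CPM in water. Their profiles ran in parallel at very unequal depth, though the rule asks for both falls in every member, so likeness in part follows from the choice. Another pair stood 3 numbers apart, with 2.73 and 11.7 CPM after potassium at young fruit, 4.17 and 19.3 CPM after potassium at flowering, and 8.28 and 42.2 CPM in water.

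Genes outside the rule with a number next to a member's were counted in the same way. Of 76 such neighbours at 5 CPM or more in water, 20 (26.3%) were lower between the timings by edgeR's test, against 12.3% of the 12970 other Vadar genes at that level. The share was 18.2% of 264 genes at 2 to 5 numbers away, 11.8% of 304 at 6 to 10, 13.2% of 562 at 11 to 20 and 12.7% of 1507 at 21 to 50. Next to the mirror class 13.5% of 74 neighbours were lower and 20.3% higher, where 13.2% of the other Vadar genes were higher. Further from the mirror class the lower share also varied. It was 14.8% of 284 genes at 2 to 5 numbers away, 8.08% of 334 at 6 to 10, and 11.8% both at 11 to 20 and at 21 to 50. Relative to water, 44.7% of the members' next neighbours were lower after potassium at young fruit and 35.5% after potassium at flowering, against 29.4% and 27.6% of the other Vadar genes. Next to the mirror class these shares were 35.1% after potassium at young fruit and 37.8% after potassium at flowering, so the share at flowering was no higher beside members than beside the mirror class. These are counts of genes in the same libraries and were given no test.

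**Figure D5:**
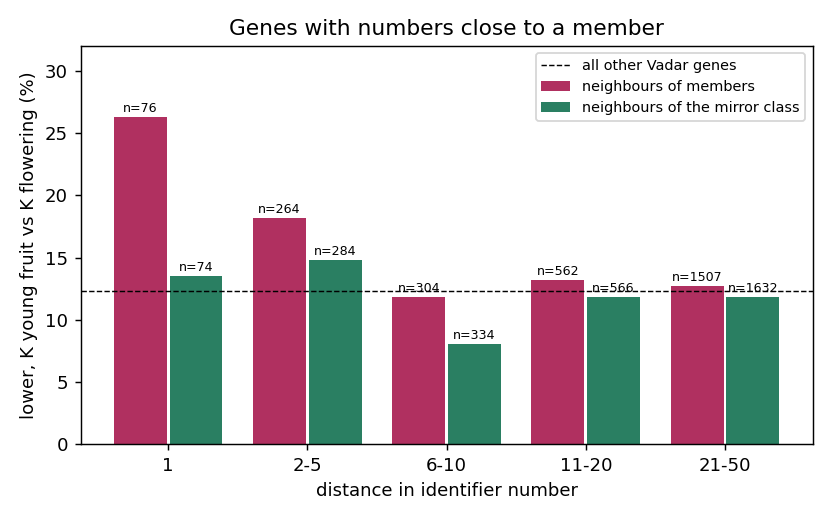
Share of genes lower after potassium at young fruit than at flowering (edgeR adjusted p under 0.05), by distance in identifier number from a member or from a mirror class gene, with the number of genes on each bar. Next to members the share was 26.3% of 76 genes, and from 6 numbers away on it lay at 11.8 to 13.2%, near the dashed line at 12.3% for the other Vadar genes. Over those distances from the mirror class it lay at 8.08 to 11.8%.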

How the data were processed

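The authors deposited unnormalized, whole-number counts for each gene, with a column for each library. HISAT2 2.1.0 and StringTie 1.3.4d are named, without roles, per the submitters' processing notes. Not given in the sources used here are the counting tool, genome build, annotation and strand setting. Groups and replicate numbers came from the sample titles. CPM were computed with edgeR 4.0.16 from TMM factors over all 38665 genes, in R 4.3.3. The test was edgeR's quasi-likelihood F test on the 25728 genes kept by filterByExpr (minimum count 10, minimum total 15), with a coefficient for each group and no covariate over all 9 libraries, and with Benjamini-Hochberg adjustment over all genes tested and a threshold of 0.05. Each SE was derived from the log2 fold change and the square root of its F value. Scripts were tested on simulated data. Members, lists and tests were chosen with earlier results of these data known. The genes named are, in each contrast, the 2 members with the most negative log2 fold change among those past the threshold whose groups are in order without overlap. Other members are described by rank or value. Pathway lists could not be matched, since identifiers have no names. Replicates were not repeats of 1 library: chi-square per degree of freedom ran from 2.69 to 6.28 over 9 pairs within groups, where plain sampling gives values near 1. Alternatives were other scalings, filters and thresholds, DESeq2 1.42.0, limma 3.58.1 (voom), the replicate block and each library left out.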

Additional observations from a re-analysis of the deposited data

Results flagged for a closer look

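In 104 of the 123 members potassium at young fruit and potassium at flowering gave different changes relative to water, as edgeR's test of young fruit against flowering found at an adjusted p under 0.05. The rule asked for that difference in the means, so the count follows from the choice of members. Of all tested genes, 9.24% were lower after potassium at young fruit than at flowering in the same test.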

How the results depend on the processing

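Of 270 values under alternatives, 255 stayed within 1.5 times of the reported count, within the replicate SD or past the threshold as before. No direction turned, and all 84 values of named members kept their call. The rule set the members' direction, and the named members were picked for large falls past the threshold. Both outcomes therefore follow largely from the choice. Membership depended most on the thresholds: 67 genes met the rule with a water minimum of 10 CPM, 336 with 1 CPM, and 14 with steps of at least 2-fold. Library size alone gave 145 members, 117 of them shared with the 123, and group medians gave 132, of which 102 were shared. The members' summed CPM moved by more than the replicate SD with library size alone, to 5415 after potassium at young fruit, 8919 after potassium at flowering and 18561 in water, and to 9330 at flowering with upper quartile scaling. Leaving out each library gave 9091 to 9212 CPM for the flowering sum, beside an SD of 29.8 CPM, and 112 to 136 members. Of these, 99 to 117 were shared with the 123. Without flowering replicate 1 the total was again 123, with 103 shared. Of the original 123, 87 to 105 were lower between the timings with a library left out, beside 1786 to 2572 of all tested genes. Without scaling factors the median over all genes (log2 fold change) shifted to -0.14 for young fruit against water and -0.13 for flowering against water, from -0.02 in both. All calls then split into 5132 higher and 8190 lower at young fruit, in place of 6582 and 6624, and into 4846 higher and 7719 lower at flowering, in place of 6263 and 6272. The members' medians were then -1.98 and -1.16. The replicate block left 106 members lower between the timings, beside 2576 of all tested genes. Other scalings and filters gave 104 to 106 members, beside 2165 to 2593 genes. DESeq2 gave 100 beside 2162 genes, limma voom 92 beside 2296, and a fit of only the 2 groups compared 96 beside 2507. At an edgeR adjusted p under 0.01, 78 members were lower, beside 1403 genes. Deviations of same-numbered libraries from different groups correlated at -0.05 to 0.07, and those of other libraries from different groups at -0.07 to 0.08. No pairing by replicate number was seen, though such values cannot exclude a paired layout. Of the 32 members under 30 counts per library at young fruit, 24 were called between the timings.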
